A study of Mus musculus with 12 samples.

Results

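The genes followed here are 7 transcription factors of the basal lineage of the mouse mammary epithelium: Trp63, Snai2, Sox10, Id4, Zeb1, Zeb2 and Bcl11b. They were taken by symbol from a table of read counts for 27179 genes, and all 7 symbols were found in it through their Entrez identifiers. The cells were basal cells, the outer layer of the gland that includes the contractile myoepithelium, and luminal cells, the inner layer that lines the ducts and makes milk. They were sorted by flow cytometry from wild-type FVB/N females that had received no treatment, and neither sorting markers nor ages are stated in the sources used here. The 6 groups were basal and luminal cells of virgin mice, of mice at day 18.5 of pregnancy and of mice at day 2 of lactation, with 2 RNA-seq libraries per group. The design text gives 2 mice per stage. Whether the 2 libraries of a group came from separate mice or pools is not said, so the p-values measure the spread between these libraries.

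Trp63 encodes p63, the factor that keeps the basal layer of stratified and glandular epithelia and switches on its keratins and hemidesmosome genes. Snai2 (Slug), Zeb1 and Zeb2 encode zinc-finger repressors that silence genes of the polarised epithelial state, such as E-cadherin and tight junction genes. Id4 encodes a helix-loop-helix protein without a DNA-binding domain that holds other such factors inactive, and it is known in the mouse gland from basal cells. Sox10 is best known from the neural crest and its glia, and in the mouse gland from cells with stem and progenitor features. Bcl11b encodes a zinc-finger factor best known for the commitment of T cells, and in the mouse gland it has been described in basal cells.

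Library totals ran from 20015386 to 24723827 counts. Levels are given as CPM, counts scaled to a common library size with TMM factors, which are set so that most genes do not shift. The scaling factors ran from 0.529 to 1.37, the lowest in lactating luminal cells, where casein and whey protein transcripts (Csn2, Csn1s1, Csn3 and Wap) summed to 504026 and 520806 CPM. Comparisons rest on edgeR's quasi-likelihood F-test over the 15969 genes that passed a filter on low counts, and a gene is called at a Benjamini-Hochberg adjusted p below 0.05. All 7 factors passed the filter, Bcl11b through basal libraries, since it had 1 to 16 counts in luminal libraries. Snai2 also had few luminal counts, 3 to 12 per library. The labels could be checked on 4 defining genes of each cell type. Krt5, Krt14, Acta2 and Oxtr summed to 10394 to 29664 CPM in basal libraries and 45.8 to 356 CPM in luminal libraries. Krt8, Krt18, Krt19 and Epcam summed to 1067 to 1688 CPM in basal libraries and 2646 to 9744 CPM in luminal libraries, so transcripts of luminal type were present in the basal sort. In lactation the luminal check was weak, with sums of 1417 to 1688 CPM in basal and 2646 to 3362 CPM in luminal libraries. There 2 of these 4 genes were called lower in basal cells and 2 were not called. When libraries were scaled by their size alone, 2 were called lower and 2 higher. The run names put all luminal libraries in lane 1 and all basal libraries in lane 2, so lane and cell type cannot be told apart. In bulk libraries, fewer cells of a type and less RNA per cell cannot be told apart either.

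The RefSeq promoter table (GRCm38.p6) held 3 of the 7 factors, Id4, Zeb2 and Bcl11b, and all 3 are shown. Each run is the 250 bases before a start listed in that table, 5′ to 3′ on the strand of the gene, at chr13:48260866-48261115 (+) for Id4, chr2:45117443-45117692 (-) for Zeb2 and chr12:108003415-108003664 (-) for Bcl11b. Capitals mark the GC box GGGCGG on either strand (CCGCCC on the other).
Id4: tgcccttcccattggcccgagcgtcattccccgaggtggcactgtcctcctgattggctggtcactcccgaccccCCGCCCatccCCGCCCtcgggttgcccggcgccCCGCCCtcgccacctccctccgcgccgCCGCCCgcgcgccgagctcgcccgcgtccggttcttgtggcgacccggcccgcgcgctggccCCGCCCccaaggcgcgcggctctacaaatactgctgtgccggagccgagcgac
Zeb2: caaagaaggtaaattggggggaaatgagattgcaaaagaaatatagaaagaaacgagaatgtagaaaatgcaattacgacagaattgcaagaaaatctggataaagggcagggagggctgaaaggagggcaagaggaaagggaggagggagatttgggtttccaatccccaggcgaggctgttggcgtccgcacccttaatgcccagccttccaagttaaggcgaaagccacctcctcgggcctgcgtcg
Bcl11b: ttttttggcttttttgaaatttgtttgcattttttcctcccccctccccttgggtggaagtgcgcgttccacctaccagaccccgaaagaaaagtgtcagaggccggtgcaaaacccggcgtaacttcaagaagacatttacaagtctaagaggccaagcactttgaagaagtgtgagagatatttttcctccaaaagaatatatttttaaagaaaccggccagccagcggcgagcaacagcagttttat
The Id4 window was 75.6% G and C with 35 CpG dinucleotides, against a median of 52.4% over all windows of the table. It held 5 GC boxes, whose first bases lay 175, 165, 142, 115 and 53 bases before the start. The Zeb2 window was 49.6% G and C with 9 CpG dinucleotides and the Bcl11b window 44.8% with 9, and neither held a GC box. The GC box was found in 32.7% of 32851 promoter windows. The E-box CACCTG, the motif bound by SNAI2 and ZEB proteins, was found in 17.2% of windows, the palindromic E-box CACGTG in 6.02% and any E-box (CANNTG, which includes both) in 66.2%. None of these E-boxes was found in the windows of Id4, Zeb2 and Bcl11b. The Zeb2 gene has 4 starts in the table, of which 1 is shown. The Bcl11b window stands before the 1 start listed for it, and it lies inside the extent of the gene given by RefSeq, which reaches further upstream.

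The 7 genes fell into a strongly read and a weakly read set in basal cells when levels were set per length (FPKM, fragments per kilobase of the deposited gene length, on the TMM scale). In virgin, pregnant and lactating basal cells, Trp63 averaged 41.5, 43.4 and 65.7 FPKM. Id4 averaged 63.7, 66.1 and 32.8 FPKM, Sox10 43.2, 45.8 and 53.4 FPKM, and Snai2 22.4, 59.1 and 35.4 FPKM at the same stages. These 4 genes lay above 83.9% to 94.5% of the genes tested in basal cells. The other 3 were read far less, with Bcl11b at 1.66, 0.582 and 0.292 FPKM, Zeb2 at 0.914, 0.325 and 0.412 FPKM and Zeb1 at 0.855, 0.450 and 0.516 FPKM. They lay above 13.3% to 31.0% of genes in basal cells. In luminal cells only Sox10 among the 7 stayed in the upper range, above 93.5% to 95.5% of genes. Id4 lay above 21.2% to 27.7% of genes there, and the other 5 above 4.78% to 17.4%.

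**Figure D1:**
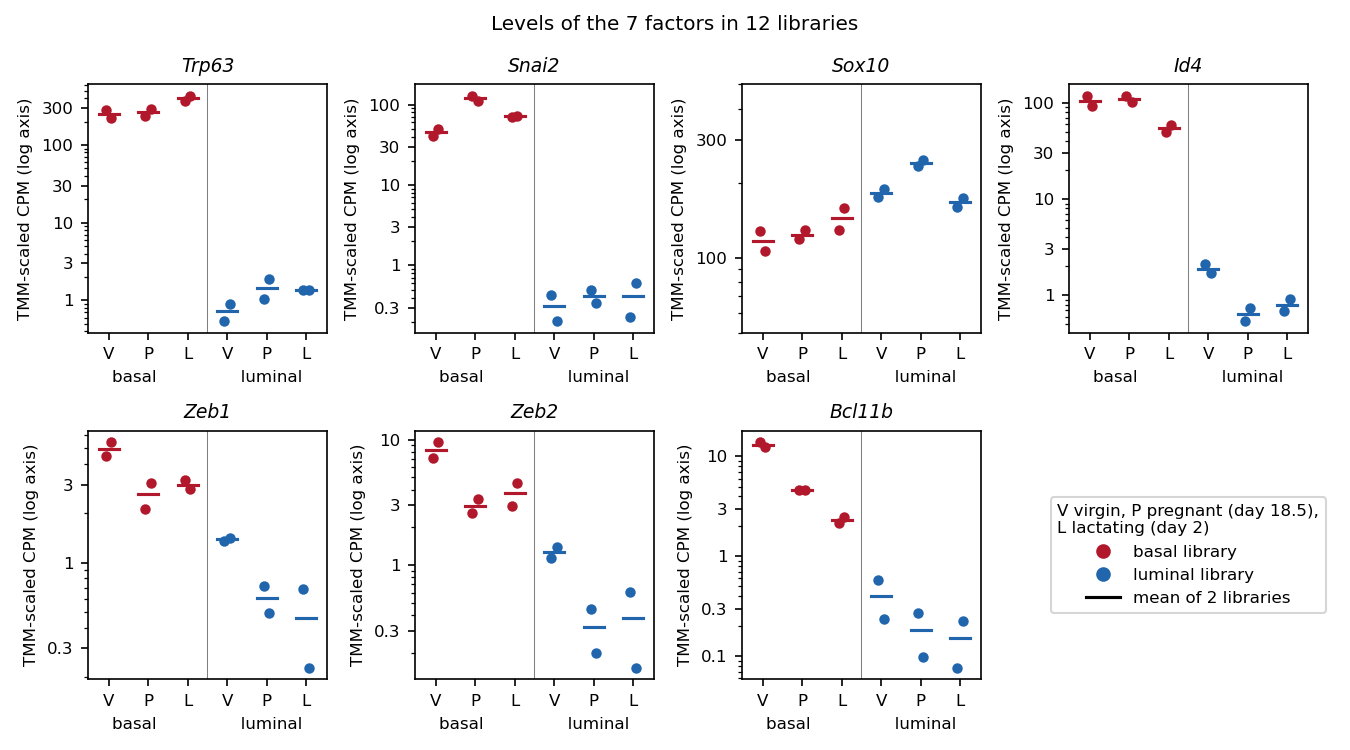
Levels of the 7 factors in each of the 12 libraries, as TMM-scaled CPM on a log axis that differs between panels, with basal libraries on the left and luminal libraries on the right of each panel; points are libraries and bars the mean of 2. Every basal library lies above every luminal library for Trp63, Snai2, Id4, Zeb1, Zeb2 and Bcl11b, and every luminal library lies above every basal library for Sox10.

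The first comparison asked how far each factor separated basal from luminal cells. Trp63, Snai2, Id4, Zeb1, Zeb2 and Bcl11b were higher in basal cells at each of the 3 stages, by 3.56-fold (Zeb1 in virgin mice) to 342-fold (Trp63 in virgin mice). Sox10 was the exception: it was lower in basal than in luminal cells in virgin and pregnant mice, which goes against its place in a list of basal factors. In virgin mice 6 of 7 were called higher and 1 lower in basal cells, where 31.5% of all genes tested were higher, 31.2% lower and 62.8% called either way. In pregnant mice 6 were again higher and 1 lower, against 35.9% higher, 33.9% lower and 69.9% called of all genes. In lactating mice 6 were higher and none lower, against 39.2%, 35.4% and 74.6% of all genes. Averaged over the stages 6 were higher and 1 lower, against 41.5%, 40.1% and 81.5%. Since most genes differed between the cell types, a call is common here. The median log2 change of the 7 was 5.01 in virgin mice, 4.58 in pregnant mice and 3.88 in lactating mice. Over all genes the medians were -0.01, 0.02 and 0.08. The gap between these medians cannot test whether the list is basal. Its 7 genes were chosen as basal factors with earlier results of these data known. The medians over all genes also lie near 0 because TMM factors are set so that most genes do not shift. When libraries were scaled by their size alone, all genes split into 10207 higher and 2529 lower in lactating mice (6253 and 5661 with TMM factors), and into 8429 and 4368 on average (6622 and 6396).

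Trp63 (Entrez 22061; chr16:25683763-25892088, GRCm38.p6, + strand) showed the widest gap of the 7 in virgin and lactating mice, and Snai2 in pregnant mice. It stood at 281 and 222 CPM in virgin, 238 and 288 CPM in pregnant and 366 and 429.6 CPM in lactating basal libraries. It stood at 0.538 and 0.911, 1.03 and 1.87, and 1.38 and 1.36 CPM in luminal libraries of the same stages, from 15 to 38 counts per library. The lowest basal library lay far above the highest luminal one. The log2 change of basal against luminal cells was 8.42 (SE 0.26, adjusted p = 9.51e-11) in virgin mice, 7.51 (SE 0.25, adjusted p = 7.93e-11) in pregnant mice and 8.18 (SE 0.27, adjusted p = 4.60e-11) in lactating mice. These are 342-fold, 182-fold and 289-fold. Ranked by this change among all genes tested, Trp63 was number 52 in virgin mice, 219 in pregnant mice and 202 in lactating mice. GENCODE lists 8 transcripts of the gene, and counts per gene do not tell the forms with and without the transactivation domain apart.

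Snai2 (Entrez 20583; chr16:14705852-14709395, + strand) lies on the same chromosome. Its change between the cell types was wider than that of Trp63 in pregnant mice and narrower in virgin and lactating mice, differences that were not tested. It stood at 40.5 and 49.6 CPM in virgin, 128 and 109.5 CPM in pregnant and 70.0 and 72.4 CPM in lactating basal libraries. In luminal libraries it stood at 0.430 and 0.202, 0.493 and 0.345, and 0.229 and 0.606 CPM, which are 3 to 12 counts. No library of one cell type came near the other. The log2 change was 7.14 (SE 0.25, adjusted p = 1.96e-10) in virgin mice, 8.12 (SE 0.25, adjusted p = 4.48e-11) in pregnant mice and 7.39 (SE 0.27, adjusted p = 1.03e-10) in lactating mice, or 141-fold, 278-fold and 168-fold. With so few luminal counts the size turned on single libraries: it was 7.76 in virgin mice without luminal virgin replicate 1 and 8.21 in lactating mice without luminal lactating replicate 2.

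Id4 (Entrez 15904; chr13:48261116-48266028, + strand) stood at 118 and 93.7 CPM in virgin, 119 and 101 CPM in pregnant and 49.4 and 59.5 CPM in lactating basal libraries. It stood at 2.11 and 1.69, 0.537 and 0.739, and 0.688 and 0.909 CPM in luminal libraries, from 9 to 59 counts. Basal libraries lay far above luminal ones at every stage, and the gap was widest in pregnancy. The log2 change was 5.80 (SE 0.19, adjusted p = 1.32e-10) in virgin mice, 7.42 (SE 0.23, adjusted p = 4.48e-11) in pregnant mice and 6.08 (SE 0.24, adjusted p = 1.82e-10) in lactating mice, or 55.6-fold, 172-fold and 67.7-fold. Genes on the opposite strand cover at most 4.44% of its exon bases, and no source used here gives the strand setting of the count.

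Bcl11b (Entrez 58208; chr12:107910403-108004145, - strand) stood at 13.9 and 12.4 CPM in virgin, 4.57 and 4.65 CPM in pregnant and 2.15 and 2.48 CPM in lactating basal libraries. In luminal libraries it stood at 0.573 and 0.236, 0.269 and 0.0986, and 0.0764 and 0.227 CPM, which are 16, 7, 6, 2, 1 and 3 counts. The cell types did not overlap, although the basal level itself became low in lactation. The log2 change was 5.01 (SE 0.33, adjusted p = 4.18e-08) in virgin mice, 4.58 (SE 0.41, adjusted p = 5.60e-07) in pregnant mice and 3.88 (SE 0.54, adjusted p = 2.36e-05) in lactating mice. The ratio of summed counts was 32.9 (95% counting interval 21.8 to 52.2) in virgin mice, 24.6 (12.3 to 57.6) in pregnant mice and 15.2 (5.76 to 56.9) in lactating mice, the last from 102 basal and 4 luminal counts. Single luminal libraries moved the log2 change to 5.76 in virgin mice (without replicate 1), to 5.47 in pregnant mice (without replicate 1) and to 3.28 or 4.80 in lactating mice (without replicate 1 or 2).

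Bcl11b is also a T cell gene, so T cell transcripts were read beside it. Of 9 T cell markers 2 had enough counts for a test: Lck was higher in basal cells and Cd3e higher in luminal cells at each stage. The 9 summed to 8.97 to 11.1 CPM in virgin, 8.98 to 9.07 CPM in pregnant and 3.54 to 6.54 CPM in lactating basal libraries. In luminal libraries they summed to 1.68 to 2.43, 2.61 to 3.05 and 4.74 to 4.92 CPM. Most of the basal sum was Lck, a kinase of T cell receptor signalling, at 9.70 ± 1.47, 7.97 ± 0.205 and 4.55 ± 1.68 CPM (SD, n = 2 each). In basal cells Cd8a was at 0 in virgin mice, and Cd3d, Cd3g and Cd2 were at 0 in lactating mice. In luminal cells Cd2 and Cd8a were at 0 in virgin and Cd3d and Cd8a in pregnant mice. The part of T cells in the Bcl11b level was not tested.

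Zeb1 and Zeb2, the pair of ZEB repressors, differed between the cell types by less than Trp63, Snai2, Id4 and Bcl11b at each stage. In lactation the Zeb2 value came near that of Bcl11b (3.28, SE 0.49, against 3.88, SE 0.54), and that difference was not tested. Zeb1 (Entrez 21417, chromosome 18) stood at 4.48 and 5.45 CPM in virgin, 2.14 and 3.09 CPM in pregnant and 3.18 and 2.80 CPM in lactating basal libraries. In luminal libraries it stood at 1.36 and 1.42, 0.717 and 0.493, and 0.688 and 0.227 CPM, from 42 counts down to 3. Basal libraries were higher at each stage without overlap, and a lactating luminal library was the lowest. The log2 change was 1.83 (SE 0.29, adjusted p = 0.000145) in virgin mice, 2.09 (SE 0.36, adjusted p = 0.000194) in pregnant mice and 2.70 (SE 0.42, adjusted p = 6.81e-05) in lactating mice, or 3.56-fold, 4.25-fold and 6.49-fold. Genes on the opposite strand cover 1.93% of its exon bases. The lactating value was 3.65 without luminal replicate 1 and 2.08 without luminal replicate 2.

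Zeb2 (Entrez 24136; chr2:44983512-45117442, - strand) stood at 7.13 and 9.53 CPM in virgin, 2.58 and 3.34 CPM in pregnant and 2.96 and 4.55 CPM in lactating basal libraries. In luminal libraries it stood at 1.15 and 1.38, 0.448 and 0.197, and 0.611 and 0.152 CPM, from 41 counts down to 2. The cell types did not overlap at any stage. The log2 change was 2.71 (SE 0.33, adjusted p = 1.46e-05) in virgin mice, 3.15 (SE 0.46, adjusted p = 4.47e-05) in pregnant mice and 3.28 (SE 0.49, adjusted p = 4.80e-05) in lactating mice, or 6.54-fold, 8.88-fold and 9.74-fold. It was 3.86 in pregnant mice without luminal replicate 1, and 4.55 or 2.57 in lactating mice without luminal replicate 1 or 2. Genes on the opposite strand, the antisense gene Zeb2os among them, cover 3.27% of its exon bases, and reads from it cannot be told apart from those of Zeb2 if the count ignored strand.

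Both ZEB genes are also read in cells of vessels and stroma, and endothelial markers were higher in basal cells as the ZEB genes were. All 10 endothelial markers were higher in basal cells in virgin mice, with a median log2 change of 2.16, and 9 of 10 in pregnant (median 2.45) and in lactating mice (median 2.20), where 1 was lower. They summed to 296 to 484 CPM in virgin, 118 to 146 CPM in pregnant and 124 to 151 CPM in lactating basal libraries. In luminal libraries they summed to 108 to 145, 28.7 to 36.9 and 64.1 to 64.8 CPM, and none of the 10 was at 0 in any group. Of 10 fibroblast markers 7 were higher and 2 lower in basal cells in virgin mice, 9 were higher in pregnant mice and 2 in lactating mice. With library sizes alone 9 fibroblast markers were higher in lactating basal cells. Their sums were lower in basal than in luminal libraries of virgin mice (235 to 349 against 445 to 456 CPM), and higher in pregnant (695 to 919 against 99.8 to 106 CPM) and lactating mice (462 to 551 against 158 to 170 CPM). Of 7 pericyte markers 6 were higher and 1 lower in basal cells at each stage. Their sums were 75.9 to 106 CPM in basal and 158 to 170 CPM in luminal libraries of virgin mice, 68.5 to 96.7 against 75.7 to 78.7 CPM in pregnant mice and 86.0 to 104 against 101 to 111 CPM in lactating mice. In virgin mice the higher luminal sum came from the 1 marker lower in basal cells, so it does not speak for the other 6. Of 9 myeloid markers 6 were tested, and 1 or 2 were higher and at most 1 lower in basal cells by stage, with sums of 9.38 to 16.5 CPM in basal and 5.91 to 16.9 CPM in luminal libraries. The part of these cells in the ZEB levels was not tested.

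**Figure D2:**
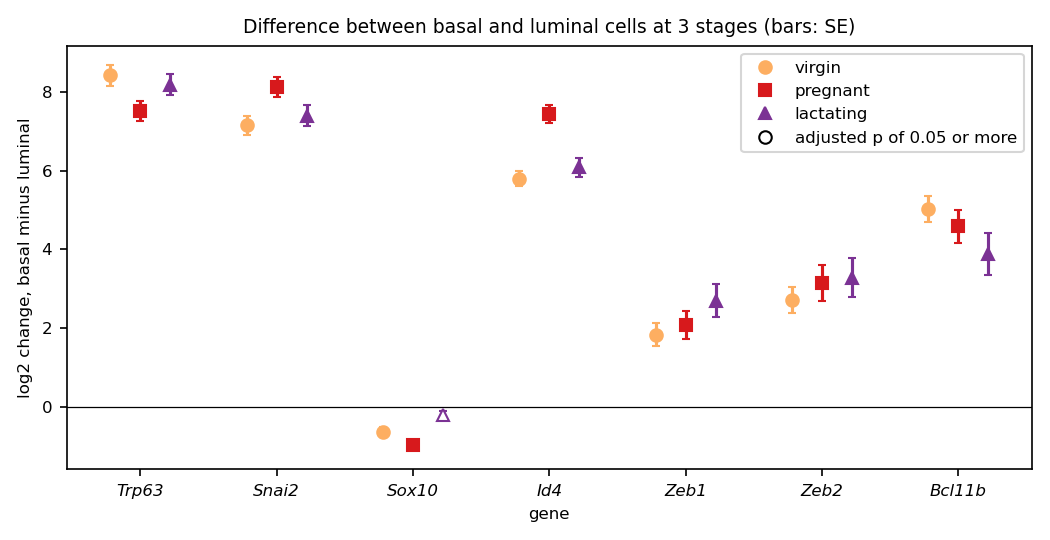
Log2 change of basal against luminal cells for each factor at the 3 stages, with bars for the SE from the edgeR fit; open symbols mark an adjusted p of 0.05 or more. Values from 7.14 to 8.42 for Trp63 and Snai2, from 5.80 to 7.42 for Id4, from 3.88 to 5.01 for Bcl11b and from 1.83 to 3.28 for the ZEB genes lie above 0, and Sox10 lies below 0.

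Sox10 (Entrez 20665; chr15:79154913-79164490, - strand) ran the other way. It stood at 128 and 106 CPM in virgin, 119 and 129 CPM in pregnant and 130.1 and 159.6 CPM in lactating basal libraries. In luminal libraries it stood at 177 and 189, 235 and 248, and 161 and 175 CPM. Each luminal library lay above each basal library, most clearly in pregnancy and only just in lactation, where the closest pair of libraries was 161 and 159.6 CPM. The log2 change of basal against luminal cells was -0.64 (SE 0.13, adjusted p = 0.000672) in virgin mice and -0.96 (SE 0.13, adjusted p = 1.84e-05) in pregnant mice. In lactating mice the adjusted p was 0.143, although it was 0.0405 without basal lactating replicate 2 (log2 change -0.37). That stage also turned with the scaling: with library sizes alone Sox10 was called higher in lactating basal cells (log2 change 0.79, adjusted p = 9.21e-05). In the order of all genes by how much higher they were in basal cells, Sox10 was number 12338 in virgin mice, 12903 in pregnant mice and 9248 in lactating mice.

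Glia of nerves and melanocytes also use Sox10. Of 8 Schwann cell markers 5 were tested, with 4 higher and 1 lower in basal cells in virgin mice, and 2 higher and 2 lower in pregnant and in lactating mice. They summed to 45.8 to 50.1, 38.6 to 41.3 and 39.7 to 41.7 CPM in virgin, pregnant and lactating basal libraries. In luminal libraries they summed to 68.0 to 74.0, 52.6 to 63.7 and 41.4 to 43.3 CPM. Mbp, a myelin protein gene, averaged 63.0 ± 5.73, 49.2 ± 6.29 and 32.0 ± 2.14 CPM of the luminal sums, and Foxd3 was at 0 in virgin and pregnant luminal cells. The 5 melanocyte markers summed to 0.834 to 2.83 CPM, with Tyr at 0 in every group. The part of these cells in the Sox10 level was not tested.

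The luminal level of a factor can be set against its basal level as a percentage, beside the same for 4 genes that define basal cells. Trp63 in luminal cells was 0.288%, 0.552% and 0.344% of its basal level in virgin, pregnant and lactating mice. Snai2 was 0.702%, 0.352% and 0.586%. Krt5, a basal keratin, was 0.204%, 0.203% and 0.203%, and Acta2, the smooth muscle actin of myoepithelial cells, 0.271%, 0.231% and 0.154%. Trp63, Snai2, Krt5 and Acta2 thus all stayed below 1% in luminal cells. Krt14 and the oxytocin receptor gene Oxtr showed that basal markers can differ among themselves, with 0.624%, 5.04% and 0.297% for Krt14 and 4.65%, 9.63% and 1.15% for Oxtr. Id4 was 1.80%, 0.582% and 1.47%, and Bcl11b 3.09%, 3.98% and 6.55%. Zeb2 was 15.2%, 10.9% and 10.2%, and Zeb1 28.0%, 23.1% and 15.3%. Sox10 was 156%, 194% and 116%. The origin of the luminal reads, whether basal cells in the luminal sort or luminal cells themselves, was not tested.

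**Figure D3:**
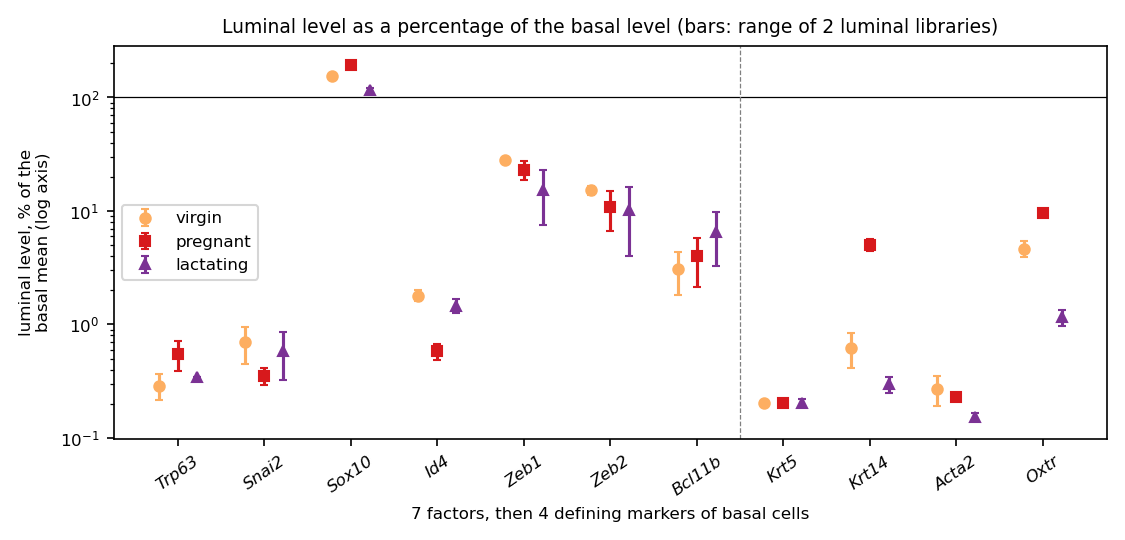
Luminal level of each factor and of Krt5, Krt14, Acta2 and Oxtr as a percentage of the basal mean of the same stage, on a log axis, with bars for the range of the 2 luminal libraries. Trp63 and Snai2 lie below 1% beside Krt5 and Acta2, the ZEB genes lie between 10.2% and 28.0%, and Sox10 lies above 100%.

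Within basal cells the factors did not move together over the reproductive cycle. In pregnant against virgin mice Snai2 rose and Zeb1, Zeb2 and Bcl11b fell. Between pregnancy and lactation Trp63 rose and Snai2, Id4 and Bcl11b fell. Sox10 was the only one of the 7 with no called change between any stages of basal cells. In pregnant against virgin mice 1 of 7 was higher and 3 lower, against 15.6% of all genes higher, 14.4% lower and 30.0% called. Into lactation the counts were also 1 and 3, against 15.7%, 17.4% and 33.1%. In lactating against virgin mice 2 were higher and 4 lower, against 23.7%, 23.7% and 47.5%. With library sizes alone all genes split into 1647 higher and 3486 lower for pregnant against virgin (2491 and 2303 with TMM factors), and into 2439 and 5202 for lactating against virgin basal cells (3791 and 3788). Single libraries weighed on the counts. Between pregnancy and lactation 2 factors and 2735 of all genes were called without basal pregnant replicate 1, and 2 factors and 2806 genes without basal lactating replicate 2 (5287 genes with all libraries). For pregnant against virgin 3009 genes were called without basal pregnant replicate 2 (4794 with all), and for lactating against virgin 3 factors without basal virgin replicate 2.

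Trp63 had no called change in pregnancy in basal cells and was higher in lactation. Its basal means were 251 ± 41.4 CPM in virgin, 263 ± 35.3 CPM in pregnant and 398 ± 45.1 CPM in lactating mice (SD, n = 2 each). Both lactating libraries lay above all 4 others, while virgin and pregnant libraries overlapped. Trp63 rose by 0.60 on the log2 scale in lactating against pregnant mice (SE 0.17, adjusted p = 0.0168) and by 0.66 against virgin mice (SE 0.17, adjusted p = 0.00618). These calls rested on single libraries. The rise against pregnant mice was 0.46 (adjusted p = 0.146) without basal pregnant replicate 1 and 0.48 (adjusted p = 0.136) without basal lactating replicate 2. The rise against virgin mice was 0.50 (adjusted p = 0.0599) without basal virgin replicate 2 and 0.54 (adjusted p = 0.0597) without basal lactating replicate 2.

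Snai2 had its highest basal level in pregnancy. Its means were 45.1 ± 6.43 CPM in virgin, 119 ± 13.4 CPM in pregnant and 71.2 ± 1.72 CPM in lactating mice. The 3 stages did not overlap. Snai2 rose by 1.40 in pregnant against virgin mice (SE 0.15, adjusted p = 3.31e-05), fell by 0.74 in lactating against pregnant mice (SE 0.15, adjusted p = 0.00233), and was 0.66 higher in lactating than in virgin mice (SE 0.15, adjusted p = 0.00274). All 3 calls held when any library was left out.

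Id4 had no called change in pregnancy in basal cells and was lower in lactation. Its basal means were 106 ± 17.1 CPM in virgin, 109.8 ± 12.4 CPM in pregnant and 54.4 ± 7.13 CPM in lactating mice. Both lactating libraries lay below all 4 others, and virgin and pregnant libraries overlapped. Id4 fell by 1.01 in lactating against pregnant mice (SE 0.14, adjusted p = 0.000308) and by 0.96 against virgin mice (SE 0.14, adjusted p = 0.000164), and both calls held when any library was left out.

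Bcl11b fell at each step. Its basal means were 13.1 ± 1.06 CPM in virgin, 4.61 ± 0.0566 CPM in pregnant and 2.32 ± 0.234 CPM in lactating mice, and the 3 stages did not overlap. It fell by 1.51 in pregnant against virgin mice (SE 0.25, adjusted p = 0.000768) and by 0.99 in lactating against pregnant mice (SE 0.28, adjusted p = 0.0158). In lactating against virgin mice it fell by 2.50 (SE 0.27, adjusted p = 1.61e-05). The step into lactation lost its call without basal pregnant replicate 1 (adjusted p = 0.0636) and without basal lactating replicate 1 (adjusted p = 0.0972) or 2 (adjusted p = 0.0626). Beside it, Lck of the T cell list fell by 1.09 in lactating against virgin basal cells (SE 0.25, adjusted p = 0.00308) and by 0.81 in lactating against pregnant ones (SE 0.25, adjusted p = 0.0260). In pregnant against virgin basal cells, where Bcl11b fell, Lck was not called (-0.28, adjusted p = 0.393). Cd3e, the other T cell marker tested, had 0 to 4 counts in basal libraries and no called change between their stages. The part of T cells in these falls was not tested.

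The ZEB genes were highest in virgin basal cells. Zeb1 averaged 4.97 ± 0.681, 2.61 ± 0.671 and 2.99 ± 0.268 CPM in virgin, pregnant and lactating mice. Zeb2 averaged 8.33 ± 1.70, 2.96 ± 0.533 and 3.75 ± 1.13 CPM. For both genes the virgin libraries lay above all others, and pregnant and lactating libraries overlapped. Zeb2 fell by 1.49 in pregnant against virgin mice (SE 0.31, adjusted p = 0.00316), a call that held when any library was left out, and by 1.15 in lactating against virgin mice (SE 0.30, adjusted p = 0.00789). The fall in lactation was 0.93 without basal virgin replicate 2 (adjusted p = 0.0610) and 0.87 without basal lactating replicate 1 (adjusted p = 0.0909). Zeb1 fell by 0.93 in pregnant mice (SE 0.28, adjusted p = 0.0241) and by 0.73 in lactating mice against virgin mice (SE 0.28, adjusted p = 0.0471). The Zeb1 fall in pregnancy had an adjusted p of 0.114 without basal virgin replicate 2 and 0.170 without basal pregnant replicate 1. The fall in lactation lost its call in 6 of 12 libraries left out, with adjusted p up to 0.198: basal virgin 1 and 2, basal lactating 1 and 2, and luminal virgin 1 and 2. It also lost its call with DESeq2 (adjusted p = 0.0823) and with relative log expression factors (adjusted p = 0.0518).

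Endothelial transcripts moved with these ZEB changes. In basal cells 9 of 10 endothelial markers fell in pregnant against virgin mice (median -1.35) and 7 of 10 in lactating against virgin mice (median -1.15). In luminal cells 9 of 10 fell in pregnant (median -1.91) and 7 of 10 in lactating against virgin mice (median -1.38). Vwf, the von Willebrand factor gene, fell by 2.45 (SE 0.24), Tek, the receptor for angiopoietins, by 2.11 (SE 0.27) and Pecam1, an endothelial adhesion gene, by 1.88 (SE 0.25) in pregnant against virgin basal cells. The summed level of the 10 markers in pregnant and lactating basal libraries was 30.4% to 38.8% of the mean of virgin basal libraries. The part of endothelial cells in the ZEB changes was not tested. Most fibroblast and pericyte markers had no called change in basal cells in pregnancy: in pregnant against virgin mice 2 of 10 fibroblast markers rose and 1 fell, and of 7 pericyte markers 1 rose and 1 fell. In lactating against virgin basal cells 1 fibroblast marker rose and 3 fell, and 3 pericyte markers rose and 1 fell. The fibroblast sum was 238% and 315% of the mean of virgin basal libraries in pregnant basal libraries, and 189% and 158% in lactating ones. The pericyte sum was 75.4% and 106% in pregnant and 115% and 94.7% in lactating basal libraries. In luminal cells none rose in pregnant against virgin mice, and 5 fibroblast and 4 pericyte markers fell. In lactating against virgin luminal cells 4 fibroblast markers rose and 3 fell, and 2 pericyte markers fell. With library sizes alone some of these fibroblast rises turned to negative values that were not called.

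**Figure D4:**
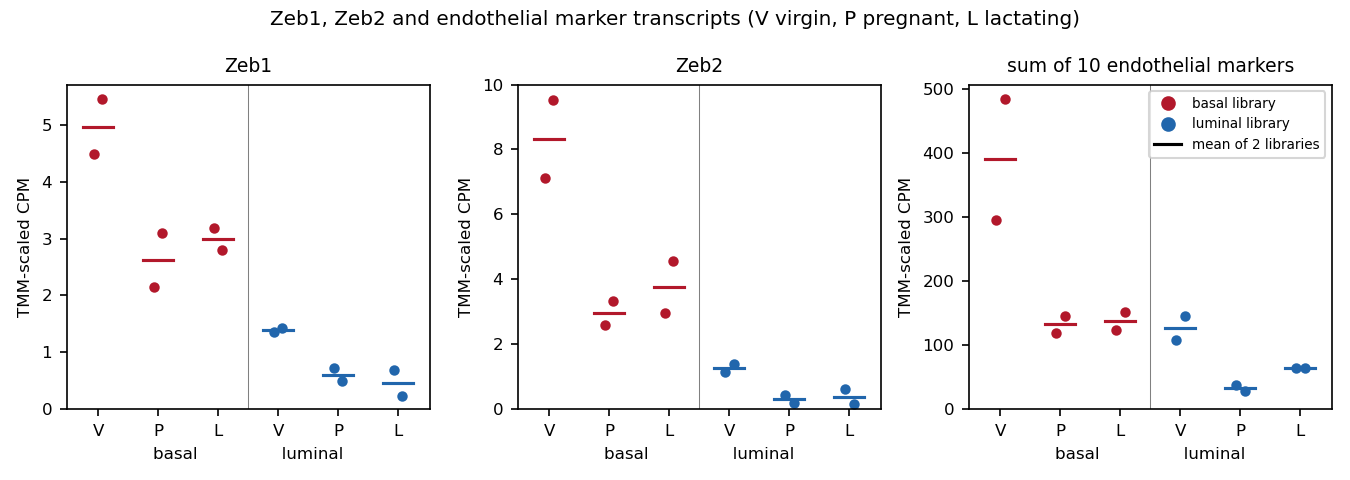
Zeb1, Zeb2 and the sum of 10 endothelial marker genes in each library, as TMM-scaled CPM on linear axes that start at 0, with points for libraries and bars for the mean of 2. In all 3 panels the virgin basal libraries are highest, and within each cell type the virgin libraries lie above those of later stages.

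Sox10 in basal cells averaged 117 ± 15.3 CPM in virgin, 124 ± 7.39 CPM in pregnant and 145 ± 20.8 CPM in lactating mice. The lactating libraries lay just above the 4 others, but the adjusted p was 0.193 against pregnant and 0.0614 against virgin mice. Against virgin mice it was called by DESeq2 (adjusted p = 0.0481) and without basal virgin replicate 1 (adjusted p = 0.0289) or basal lactating replicate 1 (adjusted p = 0.0297).

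In luminal cells the changes of the 6 basal factors concern low levels, and Sox10 was the only factor with a high level. In pregnant against virgin luminal cells 2 of 7 rose (Trp63 and Sox10) and 3 fell (Id4, Zeb1 and Zeb2), against 21.8% of all genes higher, 24.1% lower and 45.9% called. In lactating against pregnant cells none was higher and 1, Sox10, was lower, against 23.7%, 24.6% and 48.3%. In lactating against virgin cells edgeR called none higher and 3 lower (Id4, Zeb1 and Zeb2), and DESeq2 also called Trp63 higher, against 26.7%, 33.5% and 60.2%. These splits turn on the scaling, since library sizes alone gave 1212 genes higher and 8426 lower for pregnant against virgin (3488 and 3847 with TMM factors). For lactating against pregnant they gave 1013 and 9584 (3781 and 3935), and for lactating against virgin 931 and 12496 (4263 and 5346). Single libraries weighed here too. For pregnant against virgin 2 factors were called without luminal virgin replicate 1 and 1 without luminal pregnant replicate 2. For lactating against pregnant 0 were called without luminal lactating replicate 1, and for lactating against virgin 1 without luminal lactating replicate 2.

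Sox10 in luminal cells averaged 183 ± 8.94 CPM in virgin, 241 ± 9.30 CPM in pregnant and 168 ± 10.3 CPM in lactating mice. Both pregnant libraries lay above the other 4, and the virgin libraries lay above the lactating ones by a narrow margin. It rose by 0.40 in pregnant against virgin mice (SE 0.12, adjusted p = 0.0190), which was 0.35 (adjusted p = 0.113) without luminal virgin replicate 1 and 0.35 (adjusted p = 0.0946) without luminal pregnant replicate 2. With library sizes alone this change was -0.11 (adjusted p = 0.504). It fell by 0.52 in lactating against pregnant mice (SE 0.13, adjusted p = 0.00404), a call that was lost without luminal lactating replicate 1 (adjusted p = 0.0596).

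Id4 in luminal cells averaged 1.90 ± 0.302 CPM in virgin, 0.638 ± 0.143 CPM in pregnant and 0.798 ± 0.156 CPM in lactating mice. The virgin libraries lay above the other 4. It fell by 1.57 in pregnant (SE 0.31, adjusted p = 0.00110), which held when any library was left out, and by 1.24 in lactating against virgin mice (SE 0.33, adjusted p = 0.00611), which was 1.03 without luminal lactating replicate 1 (adjusted p = 0.0677). Trp63 averaged 0.724 ± 0.264, 1.45 ± 0.596 and 1.37 ± 0.00849 CPM. It rose by 0.97 in pregnant against virgin luminal cells (SE 0.36, adjusted p = 0.0438), on 61 summed counts in pregnant and 42 in virgin cells. That call was lost without luminal virgin replicate 1 (adjusted p = 0.237), luminal pregnant replicate 2 (adjusted p = 0.412), basal lactating replicate 2 (adjusted p at the threshold), or luminal lactating replicate 1 (adjusted p = 0.0564) or 2 (adjusted p = 0.0563). It was also lost with only the 4 libraries compared (adjusted p = 0.116) and with library sizes alone (adjusted p = 0.268). In lactating against virgin luminal cells Trp63 changed by 0.90 (SE 0.41, adjusted p = 0.0740 by edgeR) with no overlap between libraries. It was called there by DESeq2 (0.99, adjusted p = 0.0168), with only the 4 libraries compared (1.01, adjusted p = 0.0469) and without luminal virgin replicate 2 (1.34, adjusted p = 0.0392).

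Zeb1 in luminal cells averaged 1.39 ± 0.0392, 0.605 ± 0.158 and 0.458 ± 0.326 CPM over the 3 stages, and Zeb2 1.27 ± 0.167, 0.323 ± 0.177 and 0.381 ± 0.325 CPM. As in basal cells, the virgin libraries lay above the others for both genes. Zeb1 fell by 1.18 in pregnant (SE 0.38, adjusted p = 0.0216) and by 1.59 in lactating against virgin mice (SE 0.45, adjusted p = 0.00812). Zeb2 fell by 1.93 in pregnant (SE 0.50, adjusted p = 0.00669) and by 1.72 in lactating against virgin mice (SE 0.55, adjusted p = 0.0161). With 2 to 16 counts in the later libraries these sizes were loose. Zeb1 in pregnancy was not called without luminal virgin replicate 1 (adjusted p = 0.0578) or 2 (adjusted p = 0.0712) or luminal pregnant replicate 2 (adjusted p = 0.126). Zeb1 in lactation changed by -2.56 without luminal lactating replicate 1 and by -0.98 (adjusted p = 0.113) without replicate 2. Zeb2 in pregnancy changed by -2.66 without luminal pregnant replicate 1 and by -1.50 (adjusted p = 0.0609) without replicate 2. Zeb2 in lactation changed by -2.99 without luminal lactating replicate 1, by -1.02 (adjusted p = 0.174) without replicate 2 and by -1.58 (adjusted p = 0.0575) without luminal virgin replicate 2.

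Snai2 and Bcl11b had no called stage change in luminal cells in the edgeR fit of all libraries. Snai2 averaged 0.316 ± 0.161, 0.419 ± 0.104 and 0.418 ± 0.266 CPM and Bcl11b 0.405 ± 0.238, 0.184 ± 0.120 and 0.152 ± 0.107 CPM in virgin, pregnant and lactating luminal cells. All stages overlapped for Snai2, and no alternative called a change of it. For Bcl11b neighbouring stages overlapped, but both lactating libraries lay below both virgin ones (log2 change -1.37, SE 0.70, adjusted p = 0.112). Without luminal virgin replicate 2 Bcl11b was called lower in pregnant (-1.58, adjusted p = 0.0433) and in lactating against virgin luminal cells (-1.88, adjusted p = 0.0305). With library sizes alone it was called lower in both as well (-1.57, adjusted p = 0.0326, and -2.68, adjusted p = 0.00204).

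**Figure D5:**
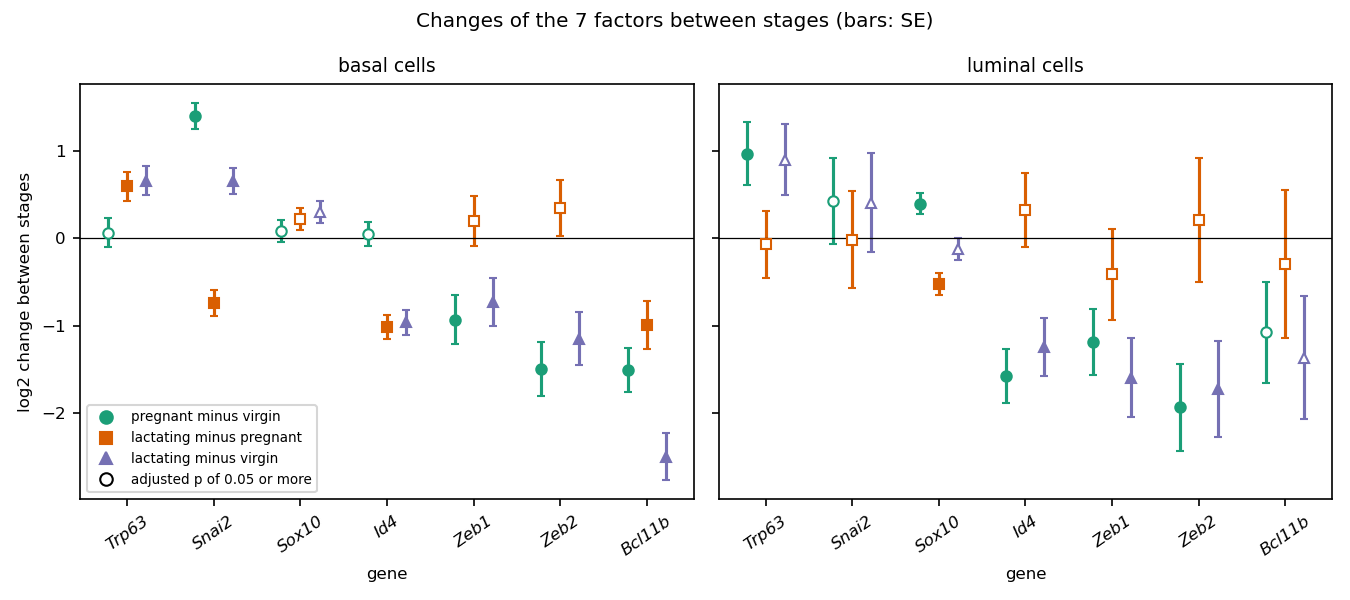
Log2 changes between stages for each factor in basal cells (left) and luminal cells (right), with bars for the SE; filled symbols passed an adjusted p below 0.05 and open symbols did not. In basal cells Snai2 stands above 0 for pregnant against virgin (1.40) and Bcl11b far below 0 for lactating against virgin (-2.50), and in luminal cells the bars of the low-count factors are wide.

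Whether a stage change differed between the cell types was tested as the basal change minus the luminal change. For pregnant against virgin 1 of 7 differed, Id4, where 30.7% of all genes did, and Trp63 was added without luminal pregnant replicate 1 (log2 difference -1.29, adjusted p = 0.0375). For lactating against pregnant 2 differed, Sox10 and Id4, where 36.2% of all genes did. For lactating against virgin 0 of 7 were called by edgeR's quasi-likelihood test and 0 by DESeq2, with 1 at an unadjusted p below 0.05, where 49.3% of all genes were called. That gene was Sox10 (adjusted p = 0.0610). With stage and replicate number together as a block, a pairing uncertain in virgin and lactating mice, Sox10 was called (log2 difference 0.43, adjusted p = 0.0321). It was also called without the filter on low counts (adjusted p = 0.0497), without basal virgin replicate 1 (adjusted p = 0.0250) and without basal lactating replicate 1 (adjusted p = 0.0258). With library sizes alone all genes split into 4614 higher and 1008 lower for pregnant against virgin (2666 and 2242 with TMM factors). The splits were 7921 and 1012 for lactating against pregnant (2869 and 2918) and 10263 and 1117 for lactating against virgin (4194 and 3681).

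For Id4 the pregnancy change was called in luminal and not in basal cells: it averaged 109.8 CPM in pregnant and 106 CPM in virgin basal cells, and 0.638 and 1.90 CPM in luminal cells of the same stages. The difference was 1.63 (SE 0.34, adjusted p = 0.00303) and held when any library was left out, from 1.41 to 1.87. Into lactation it turned, with 54.4 CPM in lactating and 109.8 CPM in pregnant basal cells, and 0.798 and 0.638 CPM in luminal cells. That difference was -1.34 (SE 0.46, adjusted p = 0.0366). It was lost without basal pregnant replicate 1 (adjusted p = 0.0668), basal lactating replicate 1 (adjusted p = 0.0635), luminal pregnant replicate 1 (adjusted p = 0.129), or luminal lactating replicate 1 (adjusted p = 0.0594) or 2 (adjusted p = 0.194). With library sizes alone it was -0.54 (adjusted p = 0.365). Sox10 averaged 145 CPM in lactating and 124 CPM in pregnant basal cells, and 168 and 241 CPM in luminal cells. The difference of 0.75 (SE 0.18, adjusted p = 0.00553) held when any library was left out, from 0.59 to 0.89.

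Relatives of the 7 factors were read as a list of 12 genes. In basal against luminal cells 7 of 12 were higher and 1 lower in virgin mice, 7 and 1 in pregnant mice and 8 and 3 in lactating mice. With library sizes alone 9 were higher and 1 lower in lactating mice, so calls of relatives as lower in lactating basal cells turn on the scaling. The median log2 change averaged over the stages was 0.79, against 0.02 over all genes. Of all genes tested, 31.5%, 35.9% and 39.2% were higher and 31.2%, 33.9% and 35.4% lower in basal cells of virgin, pregnant and lactating mice. Trp73, which encodes the p53 relative p73, was nearly as basal as Trp63 at a much lower level: 9.61 ± 0.912, 8.17 ± 0.856 and 10.3 ± 0.730 CPM in virgin, pregnant and lactating basal cells, against 0.0169 ± 0.0239, 0.0941 ± 0.00638 and 0.115 ± 0.162 CPM in luminal cells. The ratio of summed counts was 554 (95% counting interval 99.1 to 21941), 86.7 (33.6 to 320) and 90.5 (30.8 to 440), on 1, 4 and 3 luminal counts. Of the 3 stages Trp53 itself was called in lactating mice, with 54.5 ± 3.51 CPM in basal and 17.4 ± 0.108 CPM in luminal cells and a log2 change of 1.64 (SE 0.21, adjusted p = 1.04e-05). It averaged 82.4 and 67.2 CPM in basal and luminal cells of virgin mice, and 78.7 and 70.2 CPM in pregnant mice.

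Snai1 and Snai3, the relatives of Snai2, did not share its pattern. Snai1 averaged 10.4 ± 1.26, 6.42 ± 1.46 and 5.76 ± 0.218 CPM in virgin, pregnant and lactating basal cells, against 9.54 ± 0.0863, 5.36 ± 1.06 and 12.9 ± 2.99 CPM in luminal cells. It was called between the cell types in lactating mice, where it was lower in basal cells by 1.16 (SE 0.22, adjusted p = 0.000339). It fell by 0.70 in pregnant against virgin basal cells (SE 0.21, adjusted p = 0.0238), the stage at which Snai2 rose. Snai3 averaged 3.01, 1.11 and 0.405 CPM in basal and 2.33, 2.18 and 1.94 CPM in luminal cells, and was lower in lactating basal cells (log2 change -2.24, SE 0.72, adjusted p = 0.0129). Twist1 and Twist2, repressors of the same epithelial genes, were low: Twist1 averaged 1.90, 1.74 and 1.00 CPM in basal and 0.364, 0.0896 and 0.152 CPM in luminal cells, with count ratios of 5.21, 18.2 and 6.56. Twist2 averaged 0.436, 1.16 and 1.27 CPM in basal cells, and it had no count in pregnant and lactating luminal cells. Against a floor of 3 counts over the luminal group it was at least 16.6-fold higher in pregnant and at least 11.1-fold higher in lactating basal cells. With the counting error of the basal libraries included, the lower limits of the 95% exact interval were 13.1-fold and 8.76-fold.

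The SOX relatives split. Sox8, of the same subgroup as Sox10, averaged 25.5 ± 10.2, 11.6 ± 2.76 and 14.5 ± 5.91 CPM in basal cells, against 2.04 ± 0.602, 0.468 ± 0.0346 and 0.303 ± 0.321 CPM in luminal cells. It was higher in basal cells by 3.64 (SE 0.38) in virgin mice, 4.61 (SE 0.50) in pregnant mice and 5.55 (SE 0.59) in lactating mice, with adjusted p at or below 3.31e-06. Sox9, a factor of progenitor cells in many epithelia, averaged 180.4 ± 36.9, 259 ± 6.83 and 307 ± 50.9 CPM in basal cells, against 364 ± 57.4, 247 ± 34.4 and 246 ± 3.14 CPM in luminal cells. It was lower in virgin basal cells by 1.01 (SE 0.17, adjusted p = 0.000181) and was not called in pregnant or lactating mice. Its change in pregnancy differed between the cell types by 1.09 (SE 0.23, adjusted p = 0.00388). Sox8 was thus called higher in basal cells at each stage, and Sox9 and Sox10 at none of them with TMM factors.

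Among the ID genes, Id1 and Id3 fell in pregnancy in both cell types, where basal Id4 had no called change. Id3 averaged 95.9 ± 13.5, 14.3 ± 0.401 and 14.9 ± 2.35 CPM in virgin, pregnant and lactating basal cells, against 69.9 ± 0.587, 3.17 ± 0.182 and 2.09 ± 0.0408 CPM in luminal cells. It fell by 2.74 (SE 0.13) in basal and by 4.46 (SE 0.15) in luminal cells in pregnant against virgin mice, and the changes differed by 1.72 (SE 0.20, adjusted p = 4.46e-05). Id1 averaged 33.8, 7.96 and 5.91 FPKM in basal and 20.7, 3.75 and 3.30 FPKM in luminal cells. These Id1 values are per length and cannot be ranked against the CPM of Id2 and Id3. Id2 averaged 87.3, 102 and 86.5 CPM in basal and 43.6, 68.8 and 62.8 CPM in luminal cells, with no called stage change in basal cells. Id1, Id2 and Id3 were each higher in basal cells at each stage, with log2 changes of 0.46 (Id3 in virgin and Id2 in lactating mice) to 2.83 (Id3 in lactating mice), far below the 5.80 to 7.42 of Id4.

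Bcl11a, the relative of Bcl11b, did not share its basal pattern. It averaged 4.29 ± 0.282, 0.960 ± 0.157 and 0.865 ± 0.336 CPM in virgin, pregnant and lactating basal cells, against 4.43 ± 0.828, 4.32 ± 0.791 and 3.80 ± 0.192 CPM in luminal cells. The cell types overlapped in virgin mice, and Bcl11a was lower in basal cells by 2.17 (SE 0.29, adjusted p = 2.12e-05) in pregnant and 2.13 (SE 0.31, adjusted p = 4.27e-05) in lactating mice. In basal cells Bcl11a, like Bcl11b, fell in pregnant against virgin mice, by 2.16 (SE 0.28, adjusted p = 0.000164). Its pregnancy change differed from that of luminal cells by -2.12 (SE 0.38, adjusted p = 0.00111).

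Genes of the programme that p63 is known to switch on were read as a list of 15. In basal against luminal cells 14 were higher and none lower in virgin mice, 14 and 1 in pregnant mice and 15 and none in lactating mice, with a median of 3.90 averaged over the stages. The widest were Krt5 (8.94, SE 0.13), the ErbB ligand gene Nrg1 (7.98, SE 0.14) and the hemidesmosome collagen gene Col17a1 (7.67, SE 0.13). In basal cells 3 rose and 3 fell in pregnant against virgin mice (median 0.07, which was -0.09 with library sizes alone). In lactating against pregnant mice 6 rose and 1 fell (median 0.28), and in lactating against virgin mice 9 rose and 3 fell (median 0.81, against 0.00 over all genes). Of all genes tested, 15.7% were higher and 17.4% lower in the first of these comparisons, and 23.7% and 23.7% in the second. Trp63 rose in both comparisons with lactating mice, by calls that rested on single libraries, and had no called change in pregnant against virgin mice. A link between Trp63 and these genes was not tested. Into lactation the widest among basal cells were Bnc1, a zinc-finger gene of basal keratinocytes, which fell by 1.88 (SE 0.22), Dst, a hemidesmosome linker gene, which rose by 1.38 (SE 0.24), and Col17a1, which rose by 1.08 (SE 0.16). Krt5 averaged 3556 ± 486 CPM in lactating and 1949.8 ± 258 CPM in pregnant basal cells, a rise of 0.87 (SE 0.15, adjusted p = 0.00113). Against virgin mice Nrg1 rose by 3.84 (SE 0.16), to 442 ± 20.4 CPM in lactating against 31.0 ± 4.80 CPM in virgin basal cells. Bnc1 fell by 2.69 (SE 0.23) and the basement membrane gene Fras1 by 2.65 (SE 0.28).

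Genes that SNAI and ZEB repressors are known to silence were read as a second list of 15. In basal against luminal cells 13 were lower and 1 higher in virgin mice, 13 and 2 in pregnant mice, and 11 and 2 in lactating mice, with a median of -2.84 averaged over the stages. The widest were the tight junction genes Cldn4 (-5.83, SE 0.17), Cldn7 (-5.72, SE 0.15) and Ocln (-5.70, SE 0.11). Grhl2, an epithelial transcription factor gene, and the desmosome gene Pkp3 ran the other way, by 0.81 (SE 0.06) and 1.23 (SE 0.07). In basal cells 2 rose and 5 fell in pregnant against virgin mice (median -0.15), the step at which Snai2 rose and the ZEB genes fell. In lactating against pregnant mice 2 rose and 9 fell (median -0.85), and in lactating against virgin mice 2 rose and 11 fell (median -1.78). Of all genes tested in basal cells, 15.6% were higher and 14.4% lower in pregnant against virgin mice. The shares were 15.7% and 17.4% for lactating against pregnant mice, and 23.7% and 23.7% for lactating against virgin mice. Into lactation Cldn4 fell by 5.32 (SE 0.30), to 2.29 ± 0.376 CPM in lactating against 91.7 ± 11.1 CPM in pregnant basal cells. Ocln fell by 3.52 (SE 0.30) and Cldn7 by 3.25 (SE 0.30). Snai2 fell in that comparison and neither ZEB gene had a called change.

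The same genes in luminal cells are given beside these values. Cldn4 averaged 356 ± 122 CPM in lactating and 3181 ± 831 CPM in pregnant luminal cells and fell there too, by 3.16 (SE 0.24). In luminal cells 6 of the 15 rose and 1 fell in pregnant against virgin mice, but with library sizes alone none rose and 6 fell. In lactating against pregnant luminal cells none rose and 11 fell, and in lactating against virgin ones 1 rose and 9 fell. Of all genes tested, 23.7% were higher and 24.6% lower in the first of these comparisons, and 26.7% and 33.5% in the second. The part of luminal RNA in the basal levels was not tested. The 4 milk protein genes, which luminal cells make, summed to 65.4 to 99.6, 2191 to 3206 and 2828 to 2930 CPM in virgin, pregnant and lactating basal libraries, against 3650 to 4589, 95265 to 118633 and 504026 to 520806 CPM in luminal libraries.

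Other transcription factor genes give the 7 a scale. Of 8 further basal or myoepithelial factors 7 were tested, Lef1 having at most 1 count in any library, and averaged over the stages all 7 were higher in basal cells with a median of 4.61. The widest were Irx4, an Iroquois homeobox gene (8.67, SE 0.18), Mef2c, a muscle-type factor gene (6.47, SE 0.12), and Prrx1, a mesenchymal homeobox gene (4.62, SE 0.28). Irx4, at 115, 87.7 and 119 CPM in basal cells, had no called stage change there, and its gap stands beside that of Trp63 (8.04, SE 0.15, averaged over the stages). Of 12 luminal factors 11 were lower in basal cells in virgin mice, 9 were lower and 2 higher in pregnant and in lactating mice, and 10 and 2 averaged over the stages (median -1.70). The widest were Elf5, the alveolar factor gene (-5.81, SE 0.12), Foxa1, a factor gene of hormone-sensing cells (-4.94, SE 0.12), and the co-regulator gene Cited1 (-4.74, SE 0.10). The progesterone receptor gene Pgr (0.68, SE 0.11) and Tbx3 (1.55, SE 0.13) were higher in basal cells on average, and both were lower there in virgin mice. All 11 genes of the myoepithelial contractile list were higher in basal cells at each stage, with a median of 8.36 averaged over the stages. In basal cells 9 of them rose and 1 fell in pregnant against virgin mice (median 1.58), while Trp63 and Id4 had no called change.

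The genes most like each factor over the 12 libraries were found by the root mean square (RMS) difference of log2 CPM after each gene was centred on its own mean. Because cell type dominates, the nearest genes of the 6 basal factors share that gap. The log2 CPM carried a prior count of 2, so distances between genes with few luminal counts depend on it. Aff3, for example, averaged 0 CPM in lactating luminal cells. Nearest to Trp63 were Sdk2 (RMS difference 0.34), Tmem200a (0.40) and Kcnq5 (0.41). Nearest to Snai2 were an unnamed gene (Entrez 77481; 0.43), Hgf (0.49) and Pcdh7 (0.50), and nearest to Id4 were Abcb1b (0.29), Aff3 (0.35) and Aatk (0.43). Zeb1 was nearest to Ccnyl1 (0.34), Tcf4 (0.34) and Gbp5 (0.35), and Zeb2 to Npy1r (0.35), Gja4 (0.40) and Ldb2 (0.41). Bcl11b was nearest to Abca12 (0.40), Fbln1 (0.40) and Col2a1 (0.42), and Sox10 to Strn (0.12), Gnb2 (0.13) and Spsb3 (0.13). Among the 7 themselves the closest pair was Zeb1 and Zeb2 (0.52), followed by Trp63 and Snai2 (0.76) and by Snai2 and Id4 (0.95). Sox10 lay at 1.53 from Zeb1, its nearest among the 7, and at 4.30 from Trp63. Sox10 and Zeb1 still ran in opposite directions over the 12 libraries (Pearson r = -0.770), so the smaller distance does not mark a shared pattern.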

How the data were processed

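Basal and luminal cells of 3 stages were measured by RNA-seq in 12 libraries. The authors deposited raw read counts per Entrez gene for each library, with a gene length, and no normalisation is recorded in the file headers. The submitters' processing notes name CASAVA 1.8.2, Subread 1.4.4 and featureCounts, and the builds GRCm38 and mm10. Strand setting and annotation version are not stated there. Symbols were matched through a RefSeq gene table (GRCm38.p6) for 25275 of 27179 identifiers. Exon overlaps come from GENCODE models of the same build.

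Genes were filtered with filterByExpr (minimum count 10, by group), which left 15969. One fit of 6 group means over all libraries was made with edgeR 4.0.16 (limma 3.58.1) in R 4.3.3, with TMM factors, quasi-likelihood F-tests and Benjamini-Hochberg adjustment over all genes tested in each of 13 comparisons. Each SE was taken as the size of a log2 change over the root of its F value. Fitted changes use a prior count, so those of genes with few luminal counts depend on it, and their count ratios carry 95% exact intervals that cover counting error only.

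The labels number the libraries of every group 1 and 2. Deviations of same-numbered basal and luminal libraries had correlations, over 9096 genes, of 0.249 (virgin), 0.355 (pregnant) and 0.161 (lactating), so the numbers were taken from the data, not from a label, to pair the cell types of a stage. Other pairs of groups gave -0.277 to 0.164, and since no label links numbers of different stages, the sign of these values is arbitrary. By size the virgin and lactating values did not stand out from them, so the pairing at those stages is uncertain. Alternatives were relative log expression factors, library size only, no filter, DESeq2 1.42.0, only the groups compared, a replicate block, and each library left out in turn. For comparisons of cell types and differences of changes the block was stage and replicate number together. For changes between stages it was the number alone, which joins libraries of different stages that no label pairs. Replicates differed beyond sampling noise (chi-square per degree of freedom 9.36 to 29.2). The 7 factors and all gene lists were chosen with earlier results of these data known. From each list the text names at most the 3 genes with the widest called change in the comparison described, all relatives of the 7, and the defining markers. Grhl2, Pkp3, Pgr, Tbx3, Lck, Cd3e, Mbp, Foxd3 and Lef1, and Krt5 and Cldn4 in further comparisons, were named after their values were seen.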

Additional observations from a re-analysis of the deposited data

Results flagged for a closer look

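For 2 factors the change between stages differed between basal and luminal cells by the test of the difference itself. Id4 changed by 1.63 more on the log2 scale in basal than in luminal cells for pregnant against virgin mice (adjusted p = 0.00303). For lactating against pregnant mice the same difference of Id4 was -1.34 (adjusted p = 0.0366). That call was lost in 5 of 12 fits with a library left out (adjusted p = 0.0594 to 0.194), and with library sizes alone the value was -0.54 (adjusted p = 0.365). Sox10 differed by 0.75 for lactating against pregnant mice (adjusted p = 0.00553).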

How the results depend on the processing

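For the 6 factors other than Sox10, the call of basal above luminal cells and its direction held in 426 of 426 values over 18 alternatives. These values are not independent. All alternatives refit the same data, and 12 of them left out 1 library, often of a stage outside the comparison. With library size only, the median of all genes lay at -1.51 for lactating against virgin luminal cells and at 1.07 for basal against luminal cells in lactation. Under it Sox10 in lactation turned to 0.79 and its luminal pregnancy change to -0.11, the called factors were 3 for luminal lactating against pregnant (1 with TMM factors, Trp63 and Zeb1 added), 5 for luminal lactating against virgin (3, Sox10 and Bcl11b added) and 5 for the difference of changes for lactating against virgin (0), and 8933 genes differed in change for lactating against pregnant (5787). The last count of factors was 1 without a filter and 1 with the replicate block, which changed no other call. With each library left out, called factors ran from 3 to 4, 2 to 4 and 3 to 6 in basal cells (pregnant against virgin, lactating against pregnant, lactating against virgin), from 1 to 5, 0 to 1 and 1 to 4 in luminal cells, from 1 to 2, 1 to 2 and 0 to 1 for the differences, and from 6 to 7 for basal against luminal cells in lactation. Genes called in basal cells ran from 3009 to 4996 for pregnant against virgin and from 2735 to 5424 for lactating against pregnant. Where a library was left out, the lone library was assumed to vary like the other groups. Depth limits what can be said of the 6 factors other than Sox10 in luminal cells, where single libraries held 1 to 59 counts. The Id4 differences of change rest on 109, 27 and 21 summed luminal counts in virgin, pregnant and lactating mice.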
